A study of Mus musculus with 2 samples.

Results

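The lysosome is the acidic compartment in which cells break down sugars, lipids and proteins, and 30 of its genes are described here in cultured chondrocytes, the cartilage cells of the mouse. The 30 genes were chosen by name, as glycosidases, sulfatases, lipid enzymes and membrane proteins of the lysosome other than the cathepsins, and all 30 were found among the 21983 genes of the count table. RNA from primary chondrocytes of wild-type (WT) mice was sequenced in 2 libraries. The control culture received phosphate-buffered saline (PBS) and the other received recombinant mouse Sparcl1, a secreted matricellular protein, at 50 ng/ml, each for 3 days in medium with serum. There was 1 library per group, so no difference below has a replicate check, no p-value is given, and every interval covers the counting error of reads only.

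Gene counts summed to 29858851 in the control and to 26871933 in the library after Sparcl1. Values are given as counts and as CPM, the count of a gene relative to the size of its library after scaling by the trimmed mean of M-values (TMM). Levels that compare genes with each other are given as RPKM, the CPM per kilobase of all annotated exons of the gene. The log2 ratio is CPM of the Sparcl1-treated library over CPM of the control, with an exact 95% Clopper-Pearson interval. Summed over both libraries, the members had from 1155 counts (Tfeb) to 75738 counts (Psap), so all 30 were far above the minimum of 20 summed counts set for a ratio. The counting intervals of the members reached from 0.021 to 0.17 on either side of the log2 ratio.

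As background, cartilage is rich in glycosaminoglycans, the long sulfated sugar chains of its proteoglycans, and chondrocytes take up and digest them in lysosomes. A chain is shortened from its end by a fixed order of glycosidases and sulfatases. Loss of a single one of these enzymes can lead to a mucopolysaccharidosis, a storage disease that often deforms the skeleton. Many lysosomal genes carry the CLEAR element, an extended E-box, near their start sites, to which the transcription factor TFEB and its relatives bind.

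Sequence before the start sites is shown first, because it was not itself used to choose the members. Since many lysosomal genes are already known to carry the CLEAR element, a higher share of it among members is not independent evidence. Promoter windows of RefSeq (GRCm38.p6, the assembly also called mm10), 250 bases before to 50 bases after a start, were found for 27 members in 31 entries. Asah1, Galns and Npc1 had no entry. The E-box CACGTG was searched on both strands, with 3 longer forms that contain it: GTCACGTG, TCACGTGA and the 10-base palindrome, which is GTCACGTG with AC added at its end. A match to a longer form is therefore also a match to the shorter ones. At least 1 match to CACGTG was found in 8 of the 27 genes (29.6%), against 11.5% of the 10389 genes with an entry and at least 20 summed counts. For GTCACGTG, the core of the CLEAR element, the share was 7 of 27 (25.9%) against 4.63%, and for TCACGTGA 3 of 27 (11.1%) against 2.11%. Member windows had a median GC content of 56.7% against 60.7% for the windows of those genes. By single windows of the same length, CACGTG stood in 25.8% of the 31 member windows, in 9.66% of the 13289 windows of counted genes, and in 7.15% of all 32851 windows.

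**Figure D1:**
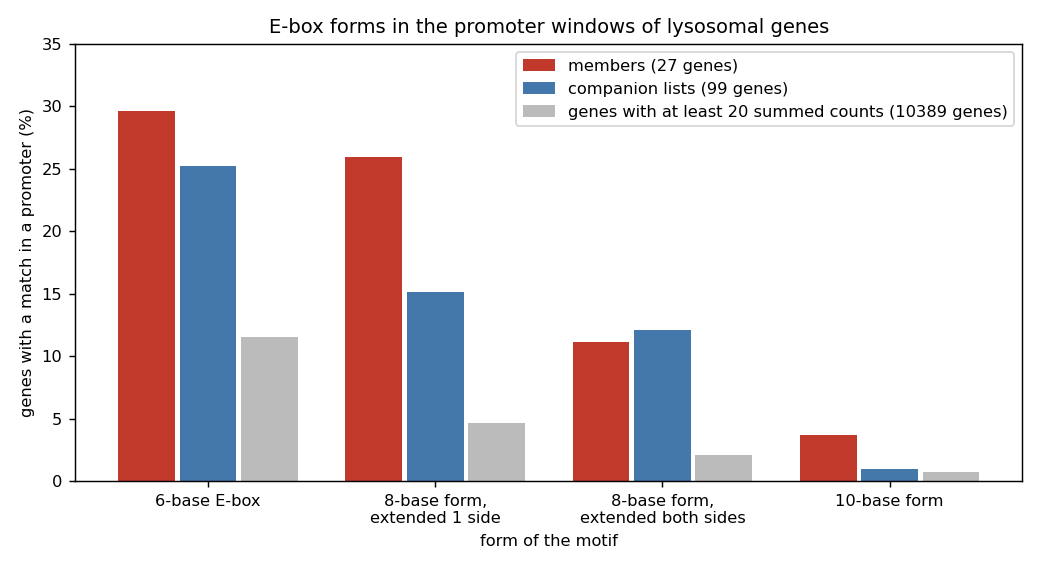
Percent of genes (vertical axis) with a match to each form of the E-box (horizontal axis) in a promoter window, for the 27 members with an entry, 99 genes of the other lysosomal lists and 10389 genes with at least 20 summed counts. The 6-base form stood in 29.6%, 25.3% and 11.5% of these genes.

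The 8 member windows with a match follow, each cropped to the bases before the start site, 5′ to 3′ on the strand of the gene, with matches to any of the 4 forms in capitals. Their coordinates are GRCm38.p6: Lamp1 chr8:13159073-13159160 (+), Mcoln1 chr8:3500419-3500508 (+), Cln3 chr7:126583323-126583412 (-), Sgsh chr11:119355511-119355566 (-), Naglu chr11:101069992-101070053 (+), Glb1 chr9:114401001-114401062 (+), Gaa chr11:119267796-119267855 (+) and Gla chrX:134601166-134601255 (-).
Lamp1: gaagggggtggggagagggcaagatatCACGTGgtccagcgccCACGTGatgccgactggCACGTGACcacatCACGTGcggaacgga
Mcoln1: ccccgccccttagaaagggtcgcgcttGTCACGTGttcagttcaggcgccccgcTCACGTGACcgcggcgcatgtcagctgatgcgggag
Cln3: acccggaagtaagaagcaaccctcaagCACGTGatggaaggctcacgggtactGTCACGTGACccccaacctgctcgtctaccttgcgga
Sgsh: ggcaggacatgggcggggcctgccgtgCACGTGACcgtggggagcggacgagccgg
Naglu: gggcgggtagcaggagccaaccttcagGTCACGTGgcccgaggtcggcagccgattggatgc
Glb1: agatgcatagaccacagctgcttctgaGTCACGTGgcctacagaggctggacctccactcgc
Gaa: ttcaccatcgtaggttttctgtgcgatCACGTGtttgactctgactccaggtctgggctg
Gla: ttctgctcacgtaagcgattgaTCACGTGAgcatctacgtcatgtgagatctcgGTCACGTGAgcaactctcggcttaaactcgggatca
These windows held 14 matches to CACGTG in all, between 15 and 227 bases before the start, and 9 of them lay within 75 bases of it. Lamp1 had 4 matches in one short stretch. The starts are those of RefSeq, and for several genes, among them Cln3, Mcoln1 and Gla, they lie inside the gene span given by GENCODE. The 10-base palindrome stood in 1 member window, that of Cln3, against 0.770% of counted genes. A match describes the letters in a window and does not show that a factor binds there.

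Per length of exon, the highest member stood 166 times above the lowest in the control and 150 times after Sparcl1, as the plot of levels by library shows. Psap, whose product prosaposin is cut into the saposins that help lipid enzymes, had the highest level, at 481 RPKM in the control and 493 RPKM after Sparcl1. It stood above 99.2% of the genes with at least 20 summed counts. Lamp1, a main glycoprotein of the lysosomal membrane, followed with 373 and 365 RPKM. Hexa, the alpha chain of beta-hexosaminidase, had 169 and 165 RPKM, and Grn, which encodes progranulin, had 167 and 157 RPKM. The lowest members were Galc, the galactosylceramidase, at 2.90 and 3.28 RPKM, Cln3 at 3.55 and 3.75 RPKM, and Tfeb at 3.71 and 3.47 RPKM. In the control, 16 of the 30 stood above 90% of counted genes and 3 stood below the median gene. The order was nearly the same in both libraries: 19 members held the same rank and none moved by more than 3 places, the largest move being that of Lamp2 from rank 7 to rank 10.

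**Figure D2:**
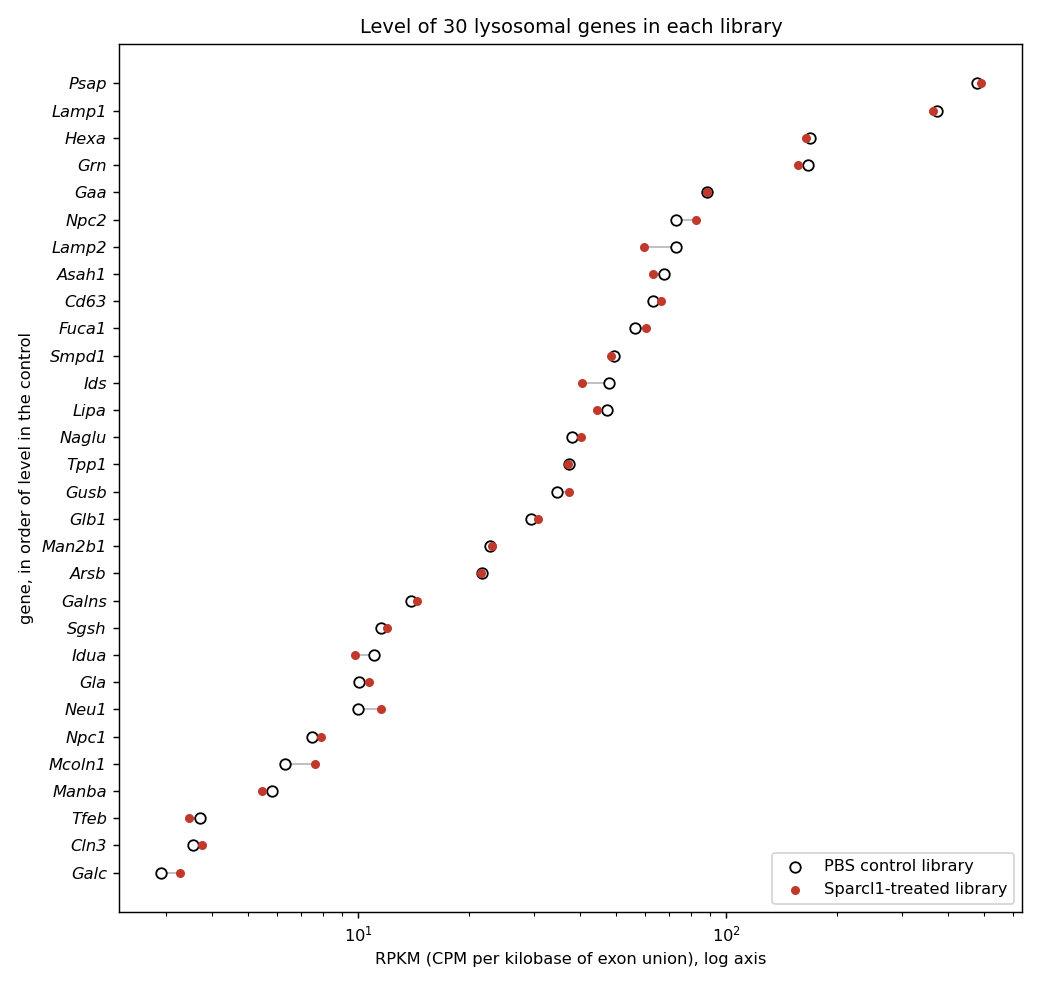
RPKM of each of the 30 genes (log horizontal axis) in the PBS control library (open circles) and the Sparcl1-treated library (filled circles), in order of the control level. From Psap at 481 RPKM to Galc at 2.90 RPKM, the 2 circles of most genes touch or overlap.

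The order rests on the length used, since exons of all annotated transcripts were joined. With the length of the longest principal transcript instead, a choice made after the values were seen, Psap and Lamp1 stayed first and second, and the levels ran from 497 RPKM for Psap to 6.40 RPKM for Cln3 in the control, while Cd63 went from rank 9 to rank 4 in the control (209 RPKM). Mcoln1 went from rank 26 to rank 20 (23.0 RPKM), and Galc from rank 30 to rank 26 (11.3 RPKM). Within a gene the length cancels from the ratio between the libraries, except where a trend with exon length is removed. Together the 30 genes took 0.735% of the control counts and 0.743% of the counts after Sparcl1, before TMM scaling. After TMM scaling their summed levels were 7441 and 7338 CPM, so the direction of the total depends on the scaling.

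No member differed between the libraries by the size rule, met by a log2 ratio of 1 or more in either direction whose interval excludes 0: 0 of 30 were higher and 0 were lower, where 0.954% and 0.946% of all 13317 genes tested were. None reached the small-size rule either, which asks for a log2 ratio of 0.3, a level 23.1% higher or 18.8% lower; 6.74% of all genes were higher and 6.35% lower by it. Low counts scatter more, so the same rule was applied to the 7626 genes with at least the 1155 summed counts of the least counted member, and there 3.68% were higher and 3.59% lower. At such shares about 1 of 30 genes would be called in each direction, so the 0 members called are near the background.

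The 30 log2 ratios ran from -0.29 (Lamp2) to 0.28 (Mcoln1), with a median of 0.030 (-0.015 with smooth trends of the ratio with GC content and exon length removed, below called the trends) and a mean of 0.015. Over all genes tested the median was -0.0019. Ratios of 14 members lay below 0 and those of 16 above it, where 50.4% of all genes tested lay below and 49.6% above, and 51.9% of those with at least 1155 summed counts lay below. With total counts as library sizes, which moves the median of all genes to 0.033, 8 members lay below 0 and 22 above, so the split depends on the scaling. Of the members, 22 (73.3%) lay within 0.1 of 0 with TMM scaling, against 49.4% of genes counted at least as often as Tfeb. With total counts Cd63, Cln3, Fuca1, Gla, Glb1, Naglu and Npc1 also passed 0.1 (from 0.10 to 0.13). With the trends removed Grn, Hexa, Npc1 and Tfeb passed 0.1 in size and Gusb fell within it. The genes compared reach down to 1155 summed counts, while the median member had 9278.5. The part of depth in these shares was not tested. Of those 7626 genes, the central 95% ran from -0.34 to 0.34, a range that holds all 30 members. Since abundant genes have small intervals, those of 9 members lay wholly above 0 and those of 7 wholly below, against 20.1% and 21.6% of all genes tested and 24.4% and 28.0% of those with at least 1155 summed counts. The intervals of 14 members held 0. These counts are with TMM scaling and depend on the processing. With total counts the intervals of Glb1, Man2b1 and Npc1 lay above 0 and that of Lamp1 held it. With the trends removed those of Gaa, Hexa, Psap, Smpd1 and Tfeb lay below 0 and that of Npc1 above it. Those of Cd63, Fuca1, Lipa and Naglu held 0 in that setting.

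**Figure D3:**
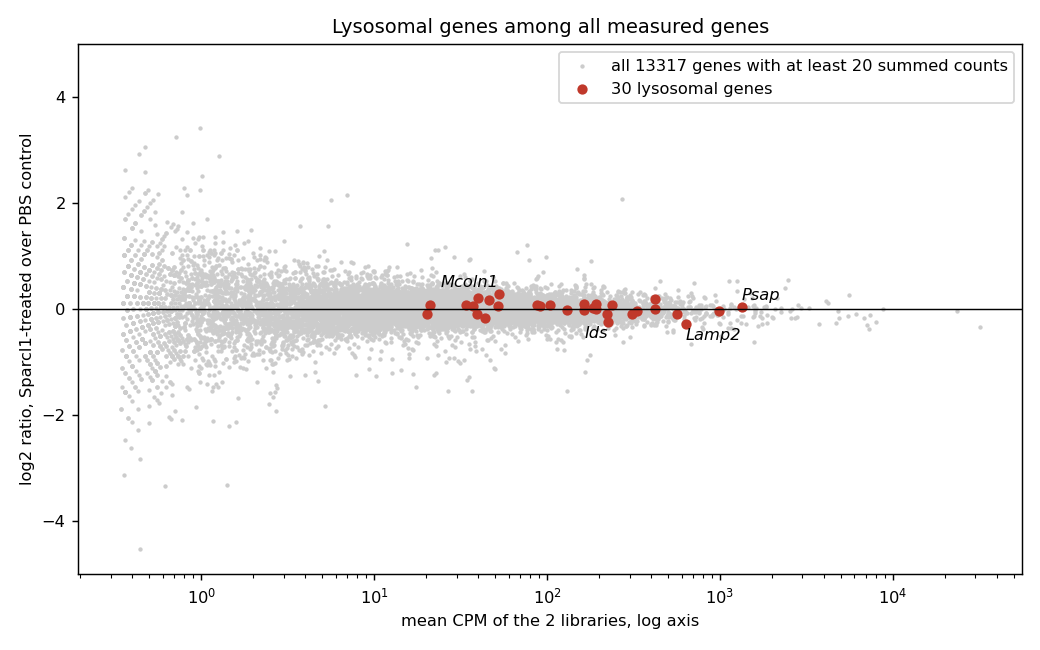
Log2 ratio of CPM, Sparcl1-treated over control (vertical axis), against mean CPM of both libraries (log horizontal axis) for 13317 genes (grey) and the 30 lysosomal genes (red). The members form a narrow band from -0.29 to 0.28 at mean levels above 20 CPM, while genes of low level scatter widely.

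With TMM scaling, the 5 membrane proteins held the highest and the lowest ratio of all members; with the trends removed these were Galc (0.35) and Idua (-0.22). Mcoln1, on chromosome 8 at 3500457 to 3515232, encodes the calcium channel TRPML1, through which lysosomes release calcium. Mcoln1 had 1404 and 1569 counts in the PBS and Sparcl1 libraries, or 47.6 and 57.7 CPM, a level 21.2% higher in the treated library (log2 0.28, interval 0.17 to 0.38). With total counts as library sizes its log2 ratio was 0.31, past the small-size rule. Lamp2, on chromosome X at 38401357 to 38456454, encodes the second main membrane glycoprotein and, in one spliced form, the receptor of chaperone-mediated autophagy. It had 20528 and 15524 counts, or 696 and 571 CPM, a level 18.0% lower in the treated library (log2 -0.29, interval -0.32 to -0.26). Counts per gene do not separate its spliced forms. With the trends removed Lamp2 stood at -0.15, and the GC content of its exons (38.7%) is the lowest among the members after that of Galc.

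Lamp1, the close relative of Lamp2, had 29467 and 26525 counts, or 999 and 975 CPM (log2 -0.035, interval -0.059 to -0.011). Its interval does not touch that of Lamp2, so counting error alone leaves the ratios of the pair apart. With total counts as library sizes Lamp1 stood at 0.00031. It shares 9.31% of its exon length with Grtp1 on the opposite strand (30 and 44 counts). Cd63, a tetraspanin of late endosomes and exosomes, had 232 and 245 CPM (log2 0.080, 0.032 to 0.13), and -0.016 with the trends removed. Cln3, a membrane protein lost in juvenile Batten disease, had 605 and 590 counts (log2 0.081, -0.085 to 0.25). It shares 7.65% of its exon length with Apobr on the other strand, a gene with 725 and 641 counts.

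With TMM scaling, the 9 enzymes that take glycosaminoglycans apart had a median log2 ratio of 0.052 and a mean of -0.0093, with 5 above 0 and 4 below. With the trends removed Galns (-0.023), Naglu (-0.022) and Sgsh (-0.013) also fell below 0. With total counts Arsb (0.025) and Hexa (0.0022) rose above it, so the split depends on the processing. Iduronate is a sugar acid of dermatan sulfate and heparan sulfate, and the 2 members that act on it one after the other had the lowest ratios of the 9. Ids (chromosome X, 70343069 to 70365084), the sulfatase that removes its sulfate, had 7202 and 5632 counts, or 244 and 207 CPM, a level 15.2% lower in the treated library (log2 -0.24, -0.29 to -0.19; -0.15 with the trends removed). Idua (chromosome 5, 108660331 to 108684557), the iduronidase that then cuts the sugar off, had 1364 and 1119 counts, or 46.2 and 41.1 CPM (log2 -0.17, -0.28 to -0.053; -0.22 with the trends removed). Idua shares 2.95% of its exon length with Dgkq and 3.35% with Slc26a1, both on the opposite strand.

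The heparan sulfate enzymes Sgsh, which removes sulfate from glucosamine, and Naglu, which removes N-acetylglucosamine, lay slightly above 0 with TMM scaling. With the trends removed both lay slightly below 0, Sgsh at -0.013. Sgsh had 1497 and 1438 counts (log2 0.059, -0.046 to 0.16), and 21.6% of its exon length is shared with Card14, an opposite gene with only 28 and 17 counts. Naglu had 101 and 107 CPM (log2 0.083, 0.0093 to 0.16), and -0.022 with the trends removed. Gusb, the beta-glucuronidase that serves heparan, dermatan and chondroitin chains, had 4657 and 4616 counts, or 158 and 170 CPM (log2 0.10, 0.045 to 0.16).

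The other 4 enzymes of this group also act on chains of cartilage. Arsb, the N-acetylgalactosamine 4-sulfatase, had 131 and 130 CPM (log2 -0.010, -0.076 to 0.057). Galns, the 6-sulfatase of keratan sulfate and chondroitin sulfate, had 36.8 and 38.2 CPM (log2 0.052, -0.072 to 0.18). The beta-galactosidase Glb1 had 88.5 and 92.6 CPM (log2 0.065, -0.014 to 0.14). Hexa had 337 and 329 CPM (log2 -0.033, -0.074 to 0.0086). The intervals of these 4 genes held 0 with TMM scaling, while that of Hexa lay below 0 with the trends removed (-0.11) and that of Glb1 above 0 with total counts (0.10). Hexa shares 12.8% of its exon length with Tmem202 on the opposite strand (37 and 23 counts), and Glb1 5.49% with Tmppe on its own strand (279 and 299 counts).

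**Figure D4:**
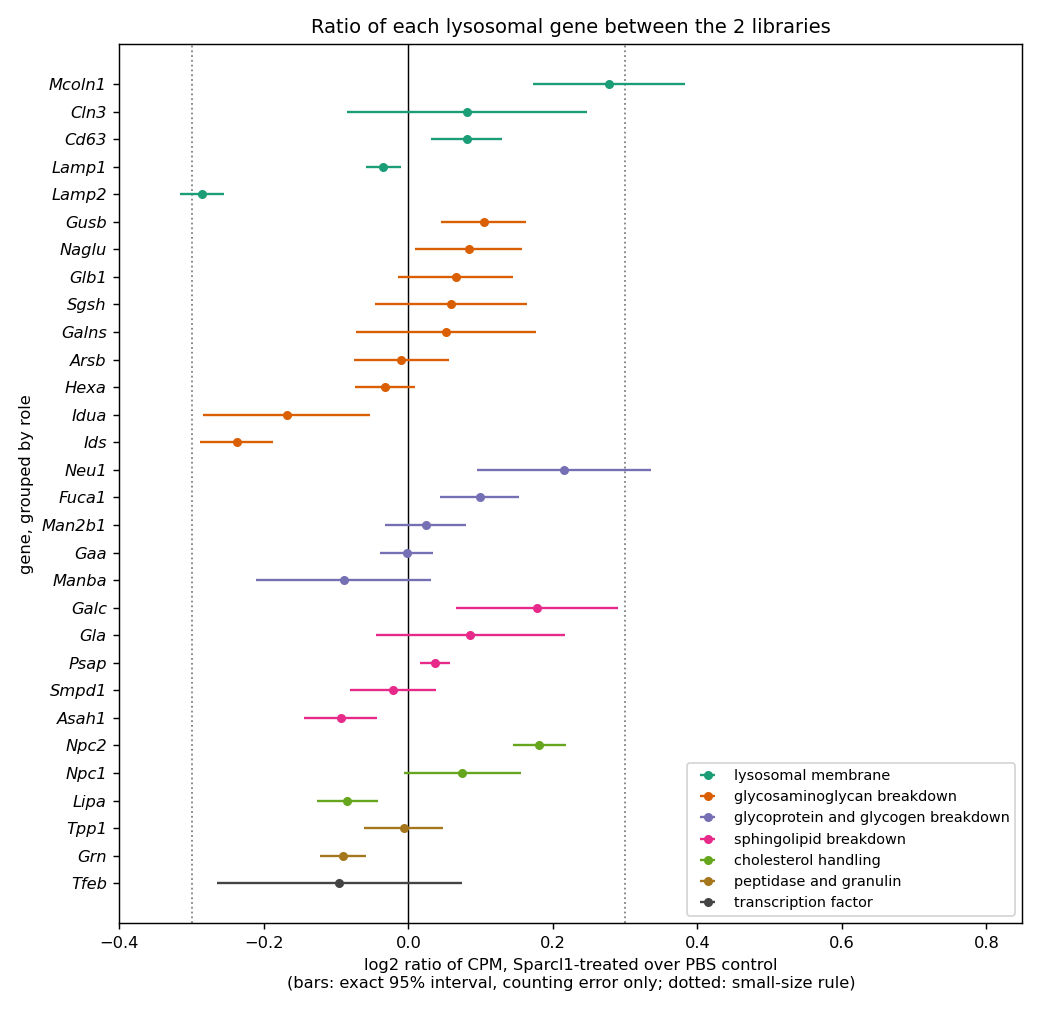
Log2 ratio of each member with its exact 95% counting interval (horizontal axis), grouped by role; dotted lines mark the small-size rule at 0.3 on either side. No point lies outside the dotted lines, and Mcoln1 and Lamp2 come closest.

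Among the 5 enzymes of glycoprotein and glycogen breakdown, Neu1 stood highest. Neu1 (chromosome 17, 34931253 to 34935953) encodes the sialidase that takes sialic acid off sugar chains, and it had 1095 and 1172 counts, or 37.1 and 43.1 CPM, a level 16.1% higher in the treated library (log2 0.22, 0.095 to 0.34). Neu1 works in a complex with Glb1 and the protective protein Ctsa, which is not a member and had 12276 and 11369 counts (log2 0.0064, -0.031 to 0.043). With TMM scaling the interval of Neu1 excluded 0 and those of Glb1 and Ctsa held it, although that of Glb1 excluded 0 with total counts. The intervals of Neu1 and Ctsa did not overlap with TMM scaling, while those of Neu1 and Glb1 did. Fuca1, the fucosidase, had 185 and 198 CPM (log2 0.098, 0.044 to 0.15). With the trends removed Fuca1 stood at 0.048, and its interval held 0. Man2b1 and Manba, which remove alpha-linked and beta-linked mannose, stood at log2 0.024 and -0.090. Their intervals (-0.032 to 0.079 and -0.21 to 0.031) held 0 with TMM scaling. With total counts Man2b1 stood at 0.059, and its interval lay above 0. Gaa, the acid alpha-glucosidase that digests glycogen, had 12481 and 11490 counts, or 423 and 422 CPM (log2 -0.0022, -0.039 to 0.034). With the trends removed Gaa stood at -0.086, and its interval lay below 0.

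The 5 genes of sphingolipid breakdown had a median log2 ratio of 0.037 with TMM scaling, the value of Psap. That value fell below 0 with the trends removed. Psap had 38924 and 36814 counts, or 1319 and 1354 CPM (log2 0.037, 0.016 to 0.057), with -0.027 after removal of the trends and 0.072 with total counts. Galc, which splits galactosylceramide, had 1272 and 1327 counts, or 43.1 and 48.8 CPM (log2 0.18, 0.066 to 0.29). With the trends removed Galc stood at 0.35, past the small-size rule. It has the longest joined exons of the members (14879 bases) and the lowest GC content (38.3%). Gla, the alpha-galactosidase lost in Fabry disease, had 969 and 948 counts (log2 0.086, -0.045 to 0.22). Smpd1, the acid sphingomyelinase, had 165 and 162 CPM (log2 -0.022, -0.081 to 0.037). With the trends removed Smpd1 stood at -0.092, with an interval below 0. Asah1, the acid ceramidase, had 229 and 215 CPM (log2 -0.094, -0.14 to -0.043).

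The cholesterol genes differed among themselves in sign. Npc2, the soluble protein that hands cholesterol on to the membrane protein Npc1, was the highest of the 3. Npc2 (chromosome 12, 84754562 to 84773152) had 11721 and 12251 counts, or 397 and 450 CPM, a level 13.4% higher in the treated library (log2 0.18, 0.14 to 0.22). Npc1 had 84.9 and 89.4 CPM (log2 0.074, -0.0066 to 0.16; 0.16 with the trends removed). It shares 4.52% of its exon length with Rmc1 on the opposite strand (992 and 1025 counts). Lipa, the acid lipase that frees cholesterol from its esters, had 321 and 302 CPM (log2 -0.084, -0.13 to -0.042), and -0.0065 with the trends removed. Per length, Npc2 stood 9.74 times above Npc1 in the control and 10.5 times after Sparcl1.

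The last 3 members were at or slightly below equal levels. Tpp1, a peptidase that removes tripeptides from protein ends, had 5680 and 5213 counts, or 193 and 192 CPM (log2 -0.0066, -0.061 to 0.048). Grn had 17109 and 14814 counts, or 580 and 545 CPM (log2 -0.091, -0.12 to -0.059; -0.17 with the trends removed and -0.056 with total counts). Tfeb, the transcription factor that binds the CLEAR element, had 620 and 535 counts (log2 -0.096, -0.27 to 0.074; -0.18 with the trends removed). With TMM scaling its interval held 0, and a gene at this depth does not separate a log2 ratio of -0.096 from counting error. With the trends removed its interval lay below 0, so this depends on the processing.

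Members with and without an E-box in their promoter windows covered overlapping ranges. With TMM scaling, the 8 genes with CACGTG had log2 ratios from -0.035 to 0.28 with a median of 0.073. The 19 without it ran from -0.29 to 0.22 with a median of -0.0096. Mcoln1 was the highest of the 8 and Lamp1 the lowest. With the trends removed Mcoln1 (0.30) stayed the highest of the 8 and Gaa (-0.086) was the lowest. Lamp1, Naglu and Sgsh then also lay below 0, and Cln3, Gla and Glb1 above it. Galc (0.35), without a match, stood above all 8 in that setting. Lamp2 and Ids, the lowest members with TMM scaling, had no match in the window searched. Across the 30 members the Spearman correlation of the log2 ratio was -0.30 with the RPKM level in the control, -0.013 with exon length and 0.042 with GC content, given as descriptions over genes that share the same pair of libraries. The members lie on 14 chromosomes, with 5 on chromosome 8, 4 on chromosome 11 and 3 on chromosome X. Those on X (Gla, Ids and Lamp2) include the 2 lowest ratios with TMM scaling, but with the trends removed Idua, Tfeb and Grn were lower than either.

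The other lysosomal genes, in 7 lists of 130 genes, had a similar centre. Their median log2 ratio was 0.0064 (mean -0.0079) over the 125 with at least 20 summed counts, with 1 gene past the size rule, and 5 higher and 1 lower by the small-size rule, which 6.74% and 6.35% of all genes tested met. Of the 25 other soluble hydrolases, Naaa, an amidase of N-acylethanolamines, was the 1 higher (log2 0.30) and the sulfatase Arsg the 1 lower (-0.30, from 346 and 259 counts). Ctsa, one of the abundant genes of that list, stood at 0.0064. None of the 11 genes of sorting and sulfatase activation passed either rule, with a median of 0.082. The mannose 6-phosphate receptors Igf2r and M6pr, which carry new enzymes to the lysosome, stood at 0.083 and 0.010, Gnptg, a subunit of the enzyme that makes their tag, at 0.25 and the sorting receptor Sort1 at -0.28.

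The proton pump of the lysosome, the V-ATPase, had a median of -0.065 over 20 of its 22 listed genes, and 1 of them, Atp6v0e2 (log2 0.38, 380 and 455 counts), was higher by the small-size rule. Its abundant subunit genes Atp6ap1 and Atp6v1a stood at 0.010 and -0.090, and Atp6v0d1 at -0.20. Of the 22 other membrane and transport genes, 20 were counted and none passed a rule (median -0.067), with Laptm4a, a small membrane protein of the lysosome, at -0.16, Laptm5 at -0.11, the potassium channel Tmem175 at -0.25 and the lipid transporter Abca2 at 0.13.

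In the list of TFEB relatives and their control, 3 of 18 genes were higher by the small-size rule and none was lower, against 6.74% and 6.35% of all genes tested (median -0.022, mean 0.065). Tfec, a relative of TFEB known from myeloid cells, was the 1 gene past the size rule, from only 23 and 51 counts (log2 1.27, 0.53 to 2.04). Lamtor2, a part of the Ragulator complex that anchors mTORC1 at the lysosome, had 955 and 1171 counts (log2 0.41, 0.29 to 0.54). The third was Flcn, folliculin, with 754 and 888 counts (log2 0.35, 0.21 to 0.50). Its partner Fnip1 had 2748 and 2063 counts (log2 -0.30, -0.38 to -0.21), while Rragc and Lamtor1 stood at -0.061 and 0.079.

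None of 20 autophagy genes passed a rule (median 0.042, range -0.19 for Atg5 to 0.15 for Gabarapl2), with the abundant cargo receptor gene Sqstm1 at 0.059 and Gabarap at -0.075. The 12 cathepsins, 11 of them counted, had a median of 0.012, a mean of -0.054 and none past a rule, with Ctsb, Ctsd, Ctsz and Ctso at 0.032, 0.012, 0.15 and -0.079.

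**Figure D5:**
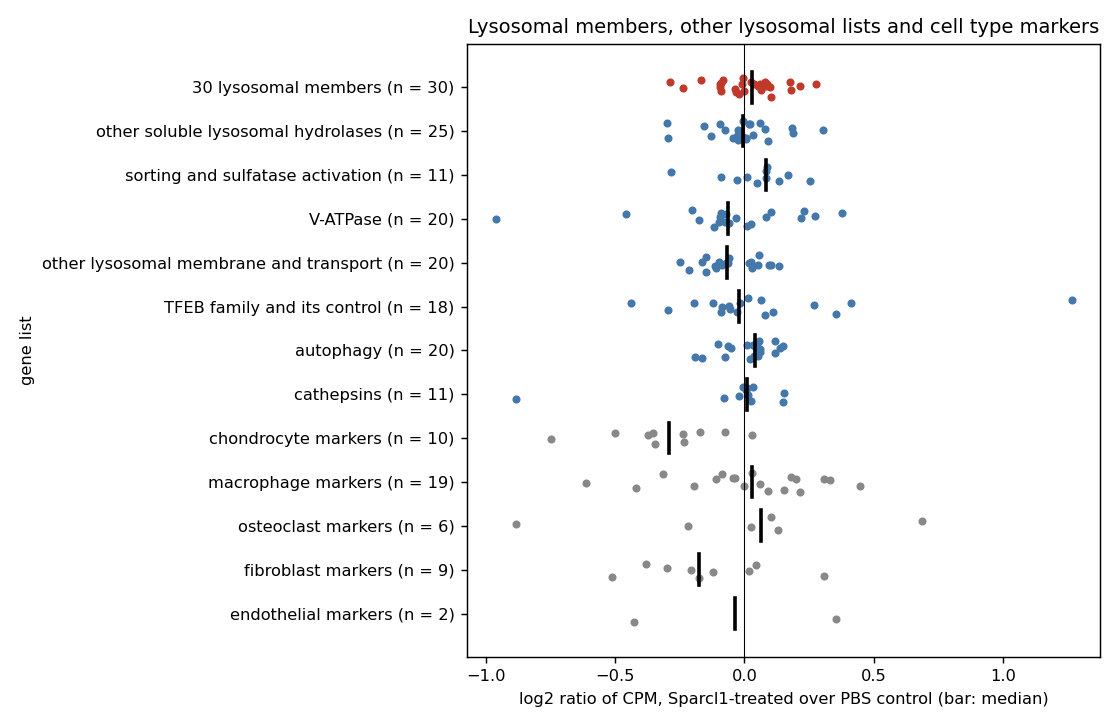
Log2 ratio of CPM, Sparcl1-treated over control (horizontal axis), for each gene with at least 20 summed counts in the members (red), 7 other lysosomal lists (blue) and 5 lists of cell type markers (grey); black bars are medians and the vertical spread within a list only separates points. The members lie between -0.29 and 0.28, and the chondrocyte markers have the lowest median, -0.29.

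The cultures held RNA of more than one cell type, and in such bulk libraries fewer cells of a type and less RNA per cell cannot be told apart. Levels of the chondrocyte markers ran widely, with Col2a1, the main cartilage collagen, at 8629 and 7332 CPM and Comp at 2909 and 2967 CPM, and Matn1 at 4.07 and 3.86 CPM and Matn3 at 2.41 and 1.43 CPM. Of 10 chondrocyte markers 5 were lower by the small-size rule and none was higher, against 6.35% and 6.74% of all genes tested, with a median log2 ratio of -0.29 and a summed level of 13383 CPM in the control and 11732 CPM after Sparcl1. All 19 macrophage markers were counted, with summed levels of 3252 and 3541 CPM (Lyz2 at 1327 and 1640 CPM, Mpeg1 at 374 and 352 CPM), 3 higher and 2 lower by the small-size rule and a median of 0.030. Of their ratios 10 lay above 0 and 9 below, and Lyz2 alone differed by more CPM than the sum did. Macrophages are rich in lysosomes, and the part of either cell type in the ratios of the members was not tested. Fibroblast markers (9 genes, led by Col1a1 and Col1a2) had summed levels of 23318 and 19252 CPM, with 2 lower and 1 higher by the same rule. Osteoclast markers were low apart from Ctsk and Nfatc1: with summed levels of 145 and 152 CPM, 6 of 8 genes reached 20 summed counts, 1 was higher by that rule, and Calcr had no count in either library. Endothelial markers were near 0, with 2 of 6 genes, Kdr and Egfl7, at 20 summed counts or more and summed levels of 3.80 and 3.31 CPM. Transcripts of the Sparcl1 gene itself were at 9.80 and 7.65 CPM, and its relative Sparc was at 5121 and 4283 CPM.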

How the data were processed

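The authors deposited a table of whole-number counts, 1 for each gene symbol and library. HTSeq, STAR, FastQC and Trimmomatic are the tools listed in the submitters' processing notes, with build mm10. Versions, gene annotation, strand setting and treatment of reads with several matches are not given in the sources used here. If strand was not used, reads of overlapping opposite genes cannot be told apart. Exons of 8 members overlap those of another gene in the table, on the opposite strand for 7 of them.

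Counts were scaled with TMM factors from edgeR 4.0.16 (0.988 for the control and 1.01 for the treated library), in R 4.3.3. Lengths, GC content and coordinates come from GENCODE M21 (GRCm38), matched by symbol for 99.6% of genes. Ratios, intervals and figures were made with matplotlib 3.10.9, statsmodels 0.14.6, pandas 2.3.3, scipy 1.17.1 and numpy 2.4.6 in Python 3.11.15. A count of 0 entered a ratio as 3 counts. Sequencing reads amplified by PCR are not independent molecules, so intervals may be too narrow. Members, lists, rules and alternatives were chosen with earlier results of these data known. Named genes are all members, Sparcl1 and Sparc, and in each other lysosomal list the 2 most abundant, the highest and lowest with at least 200 summed counts and any past the size rule; of marker lists, the 2 most abundant. Flcn, Calcr, Matn1 and Matn3 were named after their values were seen. Of the genes this rule names, 1 is not reported here. The ratios and intervals were tested on simulated data. Scaling was also done by upper-quartile factors, by the size factors of DESeq2 1.42.0 and by total counts, and other count minimums and sizes, and removal of GC and length trends, were tried. The length of the longest principal transcript was added after the data were seen.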

Additional observations from a re-analysis of the deposited data

How the results depend on the processing

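The count of members past the size rule was 0 in each direction under every alternative run, 1.5-fold included. By the small-size rule the 0 higher became 1 with total counts (Mcoln1) and 1 with GC and length trends removed (Galc). A limit of 0.2 gave 2 higher (Mcoln1 and Neu1) and 2 lower (Lamp2 and Ids). The shares of all genes in these settings were not computed, so these counts cannot be set against a background. Members below 0 numbered 14, or 8 with total counts and 18 with the trends removed. The median of 0.030 ranged from -0.015 (trends removed) to 0.065 (total counts). Among members whose interval excluded 0, the sign changed for Cd63 (-0.016), Naglu (-0.022) and Psap (-0.027) with the trends removed. It also changed for Lamp1 (0.00031) with total counts. In these settings the interval of Psap excluded 0 on the other side, while those of Cd63, Naglu and Lamp1 held 0. The cause was not tested. Among those whose interval held 0, the sign also changed for Galns (-0.023), Sgsh (-0.013) and Tpp1 (0.0065) with the trends removed, and for Arsb (0.025), Gaa (0.033), Hexa (0.0022), Smpd1 (0.013) and Tpp1 (0.028) with total counts. DESeq2 and upper-quartile factors moved no member beyond its counting interval. No paired analysis was possible because there is 1 library per group, and for the same reason no replicate could be left out. At these depths a member with about 1155 summed counts is fixed to 0.17 on the log2 scale by counting, and the spread between cultures is unknown.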
